A study of Mus musculus with 227 samples.

Results

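The 10 genes described here encode basement membrane and associated matrix proteins. They are Col4a1 and Col4a2, the alpha chains of the common collagen IV; Lama4, Lamb1, Lamb2 and Lamc1, alpha, beta and gamma chains of laminins; Nid1 and Nid2, the nidogens; Hspg2, which encodes perlecan; and Sparc, a secreted collagen-binding glycoprotein. They are 10 of the 24388 genes in the expression table and were picked by name, with their levels in these cells already known, so their levels and differences are a description and carry no test.

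Long bones of 3-day-old BL6 mice (postnatal day 3) were the source of the cells, each captured on a microfluidic chip, imaged as a single live cell and lysed with ERCC spike-in RNA. Of the 4 sorted populations, 6C3+ cells were gated as CD45-Ter-119-AlphaV+Thy-6C3+CD105+, with no Tie2 in the gate. THY+ cells were gated as CD45- Ter-119- Tie2- AlphaV+ and Thy+ 6C3- CD105+. CSP cells shared the CD45-, Ter-119-, Tie2- and AlphaV+ steps and were Thy- 6C3- CD105+, and mSSC cells, which the series calls mouse skeletal stem cells, shared the same steps and were Thy- 6C3- CD105- CD200+.

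The deposited values are FPKM, fragments scaled to transcript length and to the mapped total, so levels of different genes are on a per-length scale. Detection of a gene means an FPKM of 1 or more, and the cells described are those with at least 1000 genes detected. These were 34 of 92 6C3+ cells, 43 of 72 THY+ cells, 11 of 26 CSP cells and 37 of 37 mSSC cells. Their median number of genes was 2639 in 6C3+, 2835 in THY+, 3033 in CSP and 2534 in mSSC cells. Depth in reads is unknown. Each library is 1 cell and no animal or culture is named, so each population is 1 sample, a difference has no replicate check, and no p-value is given. Index positions put CSP and mSSC on the same plate, and THY+ and 6C3+ each on a plate of its own, where population and plate cannot be told apart. Spike-in RNA made up a median of 18.9% of FPKM in 6C3+ and 20.8% in THY+ cells, against 0.000945% in CSP and 0.00117% in mSSC cells. The FPKM of a cell summed over all genes without spike-ins also differed. Its median was 366748 in 6C3+, 752613 in THY+, 578425 in CSP and 906237 in mSSC cells, so FPKM levels are compared on unequal totals. Of 12 chondrocyte markers, 6C3+ cells held a median of 8, THY+ cells 4, and CSP and mSSC cells 12 each. The THY+ cell with the fewest of 6 housekeeping genes held 1, so a listed value of 0 does not show that a cell lacked the transcript.

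The basement membrane is a thin sheet of matrix under epithelia and endothelia and around pericytes, muscle fibres, fat cells and Schwann cells. Laminin trimers bind to cell-surface receptors and polymerise, collagen IV trimers form a covalently cross-linked network, and nidogens and perlecan bridge the networks. In the growing skeleton, perlecan is also a component of the matrix around chondrocytes, and SPARC, known as osteonectin, is abundant in bone matrix.

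In the mm10 annotation (GENCODE) Col4a1 (ENSMUSG00000031502.11) lies on the minus strand at chr8:11198423-11312826 and Col4a2 (ENSMUSG00000031503.13) on the plus strand at chr8:11312805-11449287. The pair is head to head and the gene models overlap by 22 bases, where reads of the genes cannot be told apart without strand. Promoter sequences are from RefSeq (GRCm38.p6, the same assembly as mm10), which held 7 of the 10 genes: Col4a1, Col4a2, Lamb1, Lamb2, Nid1, Hspg2 and Sparc. Each runs from 250 bases before to 50 bases after the annotated start. Shown are the collagen IV pair and Nid1, the 3 members with the largest differences between 2 groups of THY+ cells, and Hspg2, which ran the other way there. Capitals mark matches to GGGCGG (the GC box, CCGCCC on the other strand) and to CCAAT (on the other strand ATTGG). The windows are Col4a1 at chr8:11312777-11313076 (minus strand), Col4a2 at chr8:11312555-11312854 (plus), Nid1 at chr13:13437352-13437651 (plus) and Hspg2 at chr4:137468553-137468852 (plus).
Col4a1: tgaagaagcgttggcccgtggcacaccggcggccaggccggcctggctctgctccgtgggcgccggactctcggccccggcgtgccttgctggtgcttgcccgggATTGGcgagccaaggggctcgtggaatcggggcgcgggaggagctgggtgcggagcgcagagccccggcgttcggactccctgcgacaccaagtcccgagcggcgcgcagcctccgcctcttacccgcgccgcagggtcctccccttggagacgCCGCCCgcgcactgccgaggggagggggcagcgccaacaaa
Col4a2: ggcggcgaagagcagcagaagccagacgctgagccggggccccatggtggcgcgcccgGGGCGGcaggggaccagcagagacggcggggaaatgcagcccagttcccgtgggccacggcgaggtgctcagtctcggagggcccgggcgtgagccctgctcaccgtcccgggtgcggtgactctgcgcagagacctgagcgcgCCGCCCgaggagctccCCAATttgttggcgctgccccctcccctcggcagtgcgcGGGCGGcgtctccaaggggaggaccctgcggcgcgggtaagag
Nid1: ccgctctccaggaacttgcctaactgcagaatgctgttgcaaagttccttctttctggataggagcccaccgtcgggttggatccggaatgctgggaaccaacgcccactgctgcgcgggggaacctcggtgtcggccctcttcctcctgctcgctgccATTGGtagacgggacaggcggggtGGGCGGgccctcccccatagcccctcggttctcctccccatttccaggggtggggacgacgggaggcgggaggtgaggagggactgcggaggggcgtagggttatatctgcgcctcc
Hspg2: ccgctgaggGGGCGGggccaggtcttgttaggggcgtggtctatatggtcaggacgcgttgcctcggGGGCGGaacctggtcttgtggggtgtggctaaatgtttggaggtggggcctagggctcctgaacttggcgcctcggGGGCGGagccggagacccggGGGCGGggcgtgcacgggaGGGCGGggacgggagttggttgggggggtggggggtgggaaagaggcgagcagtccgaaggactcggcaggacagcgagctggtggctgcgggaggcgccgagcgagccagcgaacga

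The annotated starts of Col4a1 and Col4a2 were 21 bases apart, so their windows share 78 bases, and 1 GGGCGG match lies in the shared stretch and was found in both. A search of both strands for the motif GGGCGG, the motif CCAAT and the motif TATAAA, with no overlap between any matches, found the first in 5 of the 7 promoters, the second in 4 and the third in 0. Among all 32851 promoters in the table the shares were 35.7%, 37.4% and 13.6%. The 5 promoters with GGGCGG had a GC content of 63.7% (Lamb1) to 74% (Col4a1). Lamb2 was at 44% and Sparc at 55.3%, and the median over all promoters was 52.7%. The part of GC content in these counts was not tested. Hspg2 held 5 GGGCGG matches and no CCAAT. Col4a1, Col4a2, Lamb1 and Nid1 each held both motifs, and Lamb2 and Sparc held neither. A match describes these letters in this window and is not a binding site.

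Collagen IV, the network-forming collagen of basement membranes, was highest in THY+ cells and lowest in CSP cells. Col4a1 ranged over 0 to 1025 FPKM (median 0.952) in 6C3+ cells, 0 to 3078 (median 187.3) in THY+ cells, 0 to 0.929 (median 0) in CSP cells and 0 to 610 (median 0) in mSSC cells. All 4 ranges begin at 0 and so overlap, but no CSP cell reached 1 FPKM. Col4a1 was detected in 17 of 34 6C3+ cells (50%, exact Clopper-Pearson 95% interval 32.4 to 67.6%), 36 of 43 THY+ cells (83.7%, 69.3 to 93.2%), 0 of 11 CSP cells (upper bound 28.5%) and 3 of 37 mSSC cells (8.11%, 1.70 to 21.9%). These intervals cover counting error between cells only.

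Col4a2, the partner chain of Col4a1 in the trimer, followed the same order in THY+ and 6C3+ cells but was found more widely in the others. Its values were 0 to 714.7 FPKM (median 3.15) in 6C3+ cells, 0 to 2739 (median 111.1) in THY+ cells, 0 to 53.6 (median 0) in CSP cells and 0 to 1458 (median 0) in mSSC cells. It was detected in 19, 34, 2 and 10 cells of 6C3+, THY+, CSP and mSSC. Among cells with both chains detected, the median log2 ratio of Col4a1 to Col4a2 was -2.07 in 15 6C3+ cells, with Col4a1 higher in 2 of them, and 0.17 in 32 THY+ cells, with Col4a1 higher in 17. The 2 mSSC cells that held both had more Col4a2. The rarer chains Col4a3 and Col4a4 were detected in 1 THY+ cell each and in no cell of the other populations.

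**Figure D1:**
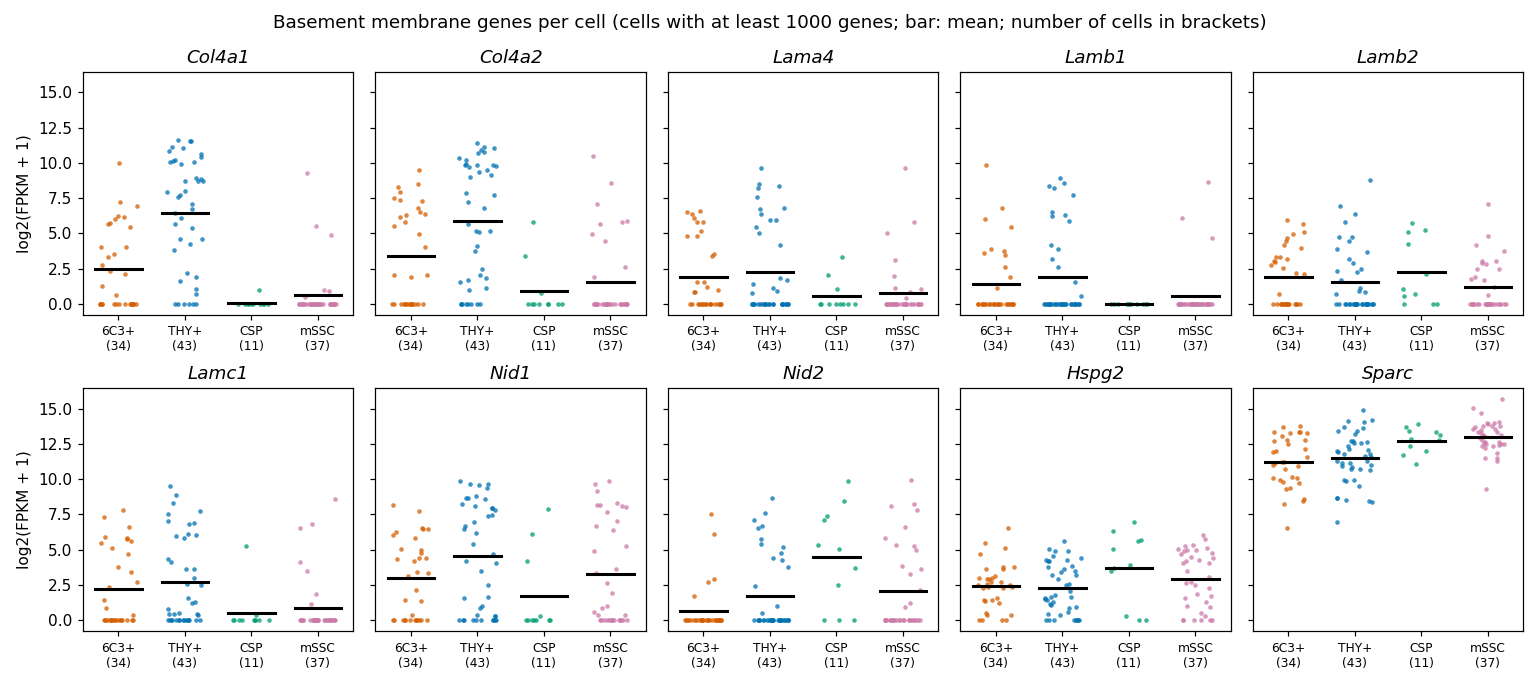
Level of each gene in each cell, as log2(FPKM + 1) on the vertical axis, for 6C3+, THY+, CSP and mSSC cells with at least 1000 genes; each point is 1 cell and the bar is the mean. Col4a1 reaches 3078 FPKM in THY+ cells and stays under 1 FPKM in all 11 CSP cells, while Sparc is detected in every cell, at 91.5 FPKM or more.

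Laminin chains were found in fewer cells than collagen IV in THY+. Lama4, the laminin alpha 4 chain known from vessels, fat and muscle, was detected in 14 of 34 6C3+, 17 of 43 THY+, 3 of 11 CSP and 7 of 37 mSSC cells. Its highest values were 93.0, 777, 8.91 and 787 FPKM in 6C3+, THY+, CSP and mSSC cells, and the median was under 1 FPKM in each. The single mSSC value of 787 FPKM stood far above the next mSSC cell, at 53.4 FPKM.

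Both beta chains were measured. Lamb1 was detected in 11 6C3+, 14 THY+, 0 CSP and 3 mSSC cells, and Lamb2 in 17, 16, 6 and 14. Their order differed: Lamb1 and Lamb2 were found in similar numbers of THY+ cells, but Lamb1 was at 0 FPKM in all 11 CSP cells, where Lamb2 reached 53.2 FPKM. Lamb2 alone of the beta chains was found in 10 6C3+, 11 THY+, 6 CSP and 13 mSSC cells, and Lamb1 alone in 4, 9, 0 and 2.

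Lamc1, the gamma chain shared by most laminins, was detected in 15 6C3+, 22 THY+, 1 CSP and 7 mSSC cells, with highest values of 227.4, 745, 36.99 and 389 FPKM. All chains of a laminin with alpha 4, that is Lama4 with Lamc1 and either beta chain, were detected together in 8 6C3+, 9 THY+, 1 CSP and 2 mSSC cells. Of these, 8, 8, 0 and 2 also held both collagen IV chains. Of other laminin chains, Lama2 was detected in 3 6C3+, 8 THY+, 2 CSP and 3 mSSC cells, Lama3 in 5 THY+ cells, and Lama1 in none of the cells.

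The nidogens, which connect laminin to collagen IV, differed in their order. Nid1 was at 0 to 281 FPKM (median 8.49) in 6C3+ cells, 0 to 927 (median 25.1) in THY+ cells, 0 to 237.7 (median 0) in CSP cells and 0 to 912 (median 1.01) in mSSC cells. It was detected in 21, 29, 3 and 19 cells. The highest mSSC value was close to the highest of THY+, while the median among cells with Nid1 detected was 128.2 FPKM in mSSC and 170.2 FPKM in THY+. Nid2 was at 0 to 186.2 FPKM (median 0) in 6C3+ cells, 0 to 405 (median 0) in THY+ cells, 0 to 933 (median 32.1) in CSP cells and 0 to 987 (median below 1) in mSSC cells. It was detected in 5 of 34 6C3+ cells (14.7%, 4.95 to 31.1%), 13 of 43 THY+ cells (30.2%, 17.2 to 46.1%), 8 of 11 CSP cells (72.7%, 39.03 to 93.98%) and 14 of 37 mSSC cells (37.8%, 22.5 to 55.2%). CSP, the population without a single cell with Col4a1, was thus the one with Nid2 in most of its cells.

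Hspg2 and Sparc were found in most cells of every population. Hspg2 was detected in 27 of 34 6C3+, 30 of 43 THY+, 8 of 11 CSP and 28 of 37 mSSC cells, at low levels: medians were 4.60, 2.34, 13.8 and 7.35 FPKM and the highest values 90.4, 47.9, 124.6 and 64.1 FPKM. Sparc was detected in every cell of the 4 populations. Its values were 91.5 to 13806 FPKM (median 2412) in 6C3+ cells, 123.99 to 30644 (median 3255) in THY+ cells, 2154 to 15242 (median 7355) in CSP cells and 619 to 52168 (median 9059) in mSSC cells. The ranges of all 4 populations overlap for both genes.

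For each gene the 4 populations can be put in order of mean log2(FPKM + 1), which gives 3 pairs of neighbours a gene and 30 in all. In none of the 30 pairs was the gap larger than the larger SD over cells of the pair. The intervals of the detected shares were apart for only 2 neighbouring pairs, 6C3+ and THY+ cells and 6C3+ and mSSC cells, both for Col4a1. Cells held a median of 5 of the 10 genes in 6C3+, 6 in THY+, 4 in CSP and 4 in mSSC. All 10 were detected together in 1 or more 6C3+ cells, while the highest number in a THY+, CSP or mSSC cell was 9, 6 and 8.

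**Figure D2:**
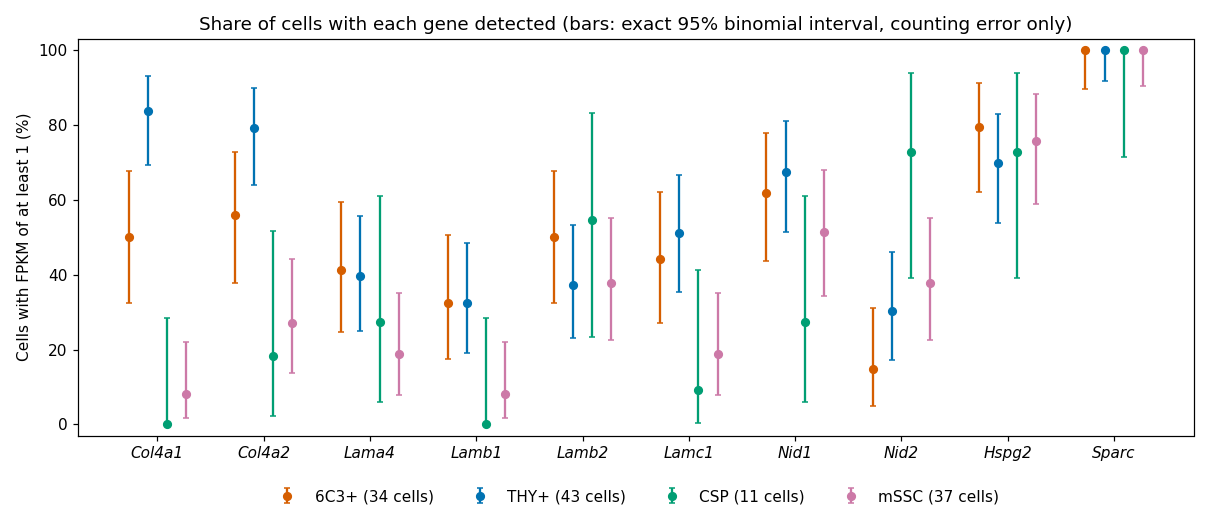
Percent of cells with each gene detected at FPKM of at least 1 in 6C3+, THY+, CSP and mSSC cells; points are shares and bars are exact 95% binomial intervals for counting error. Col4a1 stands at 50%, 83.7%, 0% and 8.11% in the 4 populations, and Nid2 at 14.7%, 30.2%, 72.7% and 37.8%.

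Differences between populations were taken as the difference of mean log2(FPKM + 1), which understates changes of low genes, and those of 2 or more in size are named. Of all genes, 7867 were detected in at least 10% of cells as a mean over the populations, and all 10 members are among them. In THY+ minus mSSC, 2 members were higher by 2 or more, Col4a1 by 5.83 and Col4a2 by 4.33, and 0 were lower, where 1.91% of all 7867 genes were higher and 3.06% lower. The median over the members was 1.31, against 0.10 over all genes. Lamc1 (1.85), Lama4 (1.46), Lamb1 (1.40) and Nid1 (1.22) were positive but under 2, and Sparc was at -1.54. Over all cells Sparc was at -4.50 in this comparison, where THY+ alone of the pair has cells under 1000 genes. In 6C3+ minus mSSC no member reached 2 in either direction, where 0.737% of all genes were higher and 4.45% lower. Col4a1 was at 1.85, Col4a2 at 1.83 and Sparc at -1.79, and these values depended on the cells used or the processing. With FPKM of each cell rescaled to the same total Col4a1 and Col4a2 were at 2.65 and 2.58, with the ratio of mean FPKM at 1.39 and 0.43, and over all cells at 0.65 and -0.057. Sparc had a mean log2(FPKM + 1) of 11.23 in the 6C3+ cells described and 13.02 in mSSC cells. In the 58 6C3+ cells under 1000 genes its mean was 3.69.

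On their shared plate, CSP minus mSSC had 1 member higher by 2 or more, Nid2 at 2.41, and 0 lower, where 3.62% of all genes were higher and 1.84% lower. The intervals of its detected shares overlap. This difference was 0.73 among cells in a shared range of gene number, which left only 5 CSP and 25 mSSC cells. It was -0.13 over all cells without the limit on gene number, where CSP alone of the pair has cells under 1000 genes. Nid1 ran the other way, at -1.61. The median over the members was -0.33, against 0.05 over all genes.

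Between the populations on plates of their own, 6C3+ minus THY+ had 2 members lower by 2 or more, Col4a1 at -3.98 and Col4a2 at -2.50, and 0 higher, where 0.966% of all genes were lower and 0.229% higher. No gene of the 7867 had a lower difference than Col4a1. Nid1 was at -1.56 and Nid2 at -1.10, and the other 6 members lay between -0.52 and 0.34.

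Against CSP, 6C3+ and THY+ cells were both higher in collagen IV. THY+ minus CSP had 4 members higher by 2 or more, Col4a1 (6.34), Col4a2 (4.97), Nid1 (2.84) and Lamc1 (2.21), and 1 lower, Nid2 (-2.77), where 3.44% of all genes were higher and 6.14% lower. In 6C3+ minus CSP, Col4a2 (2.48) and Col4a1 (2.36) were higher and Nid2 (-3.87) lower, where 1.84% of all genes were higher and 7.69% lower. THY+ minus mSSC and THY+ minus CSP share the THY+ cells, and each population enters 3 of the 6 comparisons, so these are not separate observations. With cells under 1000 genes included, 6 of the 13 differences named here still reached 2 in the same direction.

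Markers of connective tissue also differed between the populations. Of 9 fibroblast and periosteal markers, 6C3+ cells held a median of 4.5, THY+ cells 4, CSP cells 2 and mSSC cells 3, and 8, 9, 5 and 7 of the 9 were found in any cell. Their summed log2(FPKM + 1) was 10.9 to 69.6 in 6C3+, 3.03 to 73.9 in THY+, 10.3 to 48.3 in CSP and 8.59 to 67.5 in mSSC cells. Postn, a matrix protein of periosteum, was detected in 24 6C3+, 41 THY+, 1 CSP and 9 mSSC cells, while Lum, a proteoglycan of the same list, was detected in 18, 21, 10 and 27. Pdgfra, Dpt, Ly6a and Pi16 were detected in no CSP cell, but Ly6a and Pi16 were in no mSSC cell either. Pi16 was also in no 6C3+ cell and in 1 THY+ cell. Dcn, of the same list, was detected in 23 of 34 6C3+, 19 of 43 THY+, 9 of 11 CSP and 26 of 37 mSSC cells. Of 7 tendon markers the medians were 2, 3, 1 and 2. The part of these transcripts in the differences of the 10 genes was not tested.

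**Figure D3:**
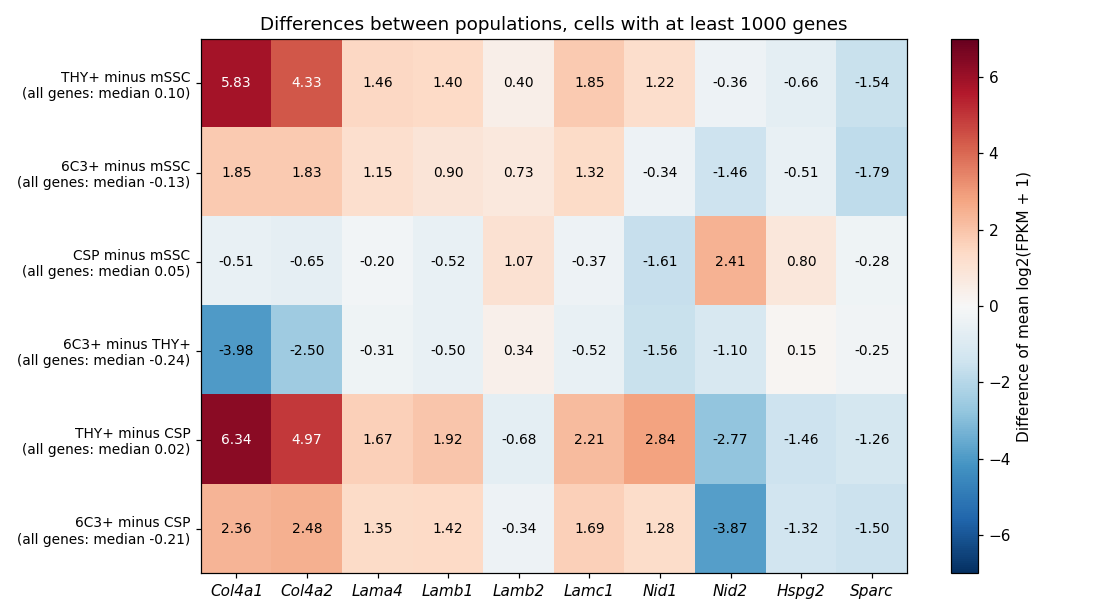
Difference of mean log2(FPKM + 1) for each of the 10 genes (columns) in the 6 comparisons (rows), with the median over all 7867 genes under each row name; red is higher and blue lower in the first-named population. Col4a1 runs from 6.34 in THY+ minus CSP to -3.98 in 6C3+ minus THY+, and Nid2 is at -3.87 in 6C3+ minus CSP.

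Within THY+ cells, collagen IV and Nid1 went with pericyte and smooth muscle transcripts. Of 11 such markers, 13 of the 43 cells held 5 or more (6 to 10) and 30 held under 5 (0 to 4). Col4a1 was at 973 to 3078 FPKM (median 1619) in the 13 cells, against 0 to 480 FPKM (median 32.3) in the 30 cells. The ranges do not overlap, which held for 0.0381% of the 7867 genes, that is for Col4a1, Atp1b2 and Rgs5, the last being itself a marker used for the split. A gene found only in these 13 cells could not reach the 10% limit that the 7867 genes passed. Kcnj8 and Abcc9, markers of the split each detected in 13 THY+ cells, fell below it. The share thus leaves out genes particular to such cells and does not show how rare the pattern of Col4a1 is. Col4a2 was at 0 to 2739 FPKM (median 1301) in the 13 cells and at 0 to 967 FPKM (median 14.03) in the 30 cells, with 1 of the 13 at 0. Nid1 was at 2.03 to 927 FPKM (median 391), against 0 to 787 FPKM (median 1.44).

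The difference between the 13 and the 30 cells reached 2 for 5 members, Col4a1 (6.13), Col4a2 (5.39), Nid1 (4.73), Lama4 (2.49) and Lamb1 (2.14), and -2 for 0, where 7.53% of all genes were higher and 1.64% lower. These shares also leave out genes found only in the 13 cells. Lamc1 was at 1.60, Sparc at 0.44, Lamb2 at -0.49 and Hspg2 at -1.17, and Nid2 at 0.00049. The median over the members was 1.87, against 0.15 over all genes. Hspg2 was detected in 5 of the 13 cells and 25 of the 30 cells. The 13 cells had a median of 3193 genes and the 30 cells 2799.5, and the part of gene number in these values was not tested.

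At least 1 of 10 endothelial markers was detected in 13 of the 13 cells and 3 of the 30 cells. Without Esam the counts were 2 and 1, and Pecam1, Kdr, Tie1 and Cldn5 were detected in no cell of any population. Across the 4 populations, 4, 4, 0 and 2 of these 10 genes were found in any 6C3+, THY+, CSP and mSSC cell, and no cell held more than 2. Adding up log2(FPKM + 1) over the list gave 0 to 11.04 in 6C3+ cells, 0 to 15.2 in THY+ cells, 0 in every CSP cell and 0 to 6.36 in mSSC cells. Of the 11 pericyte markers 10, 11, 3 and 11 were found in any 6C3+, THY+, CSP and mSSC cell, and the sum was 0 to 44.4 in 6C3+, 0 to 81.7 in THY+, 5.25 to 11.7 in CSP and 0 to 85.7 in mSSC cells. Cspg4, 1 of these markers, was detected in 50% of 6C3+, 58.1% of THY+, 90.9% of CSP and 83.8% of mSSC cells. Every other marker of the list had its largest share in THY+ cells.

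With the marker-rich cells left out of every population, Col4a1 was still higher by 4.22 in THY+ minus mSSC and by 4.49 in THY+ minus CSP, and lower at -2.35 in 6C3+ minus THY+. Of the named differences 3 were then under 2 in size, Col4a2 in 6C3+ minus THY+ (-1.02), and Nid1 (1.41) and Lamc1 (1.73) in THY+ minus CSP. Nid1 in THY+ minus mSSC was at -0.04. With the cells holding an endothelial marker left out instead, Col4a1 was at 3.996 in THY+ minus mSSC, and the same 3 differences were at -0.76, 1.17 and 1.12.

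A marker-rich cell was also present in 6C3+ and in mSSC, 1 in each. The mSSC cell held 10 of the 11 pericyte markers and had the highest Col4a1 (610 FPKM), Col4a2 (1458), Lama4 (787) and Lamc1 (389) of the 37 mSSC cells. Without it the highest mSSC values were 43.9 FPKM for Col4a1, 379 for Col4a2, 53.4 for Lama4 and 111.2 for Lamc1. Hspg2 was at 0 in that cell. The 6C3+ cell held 6 of the markers and had the highest Col4a1 of the 34 6C3+ cells, 1025 FPKM, with the next at 144.7 FPKM. Its Lamb2 was at 0 and its Hspg2 at 1.88 FPKM.

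The THY+ plate was not uniform. In its first 2 index rows (20 cells) spike-in RNA was a median of 7.18% of FPKM, against 35.5% in the other rows (23 cells). Between these rows Nid1 differed by 3.15, Col4a2 by 2.78 and Col4a1 by 1.75, all higher in the first 2 rows, which held 8 of the 13 marker-rich cells. Within the first 2 rows Col4a1 differed by 5.66 between the 8 marker-rich and the 12 other cells. Within the other rows it differed by 6.39 between 5 and 18 cells. Its ranges in all marker-rich and all other THY+ cells do not overlap, so they could not overlap within either set of rows. Without the first 2 rows of the THY+ and 6C3+ plates, Col4a2 in 6C3+ minus THY+ was at -1.21, and Nid1 and Lamc1 in THY+ minus CSP at 1.37 and 1.82.

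**Figure D4:**
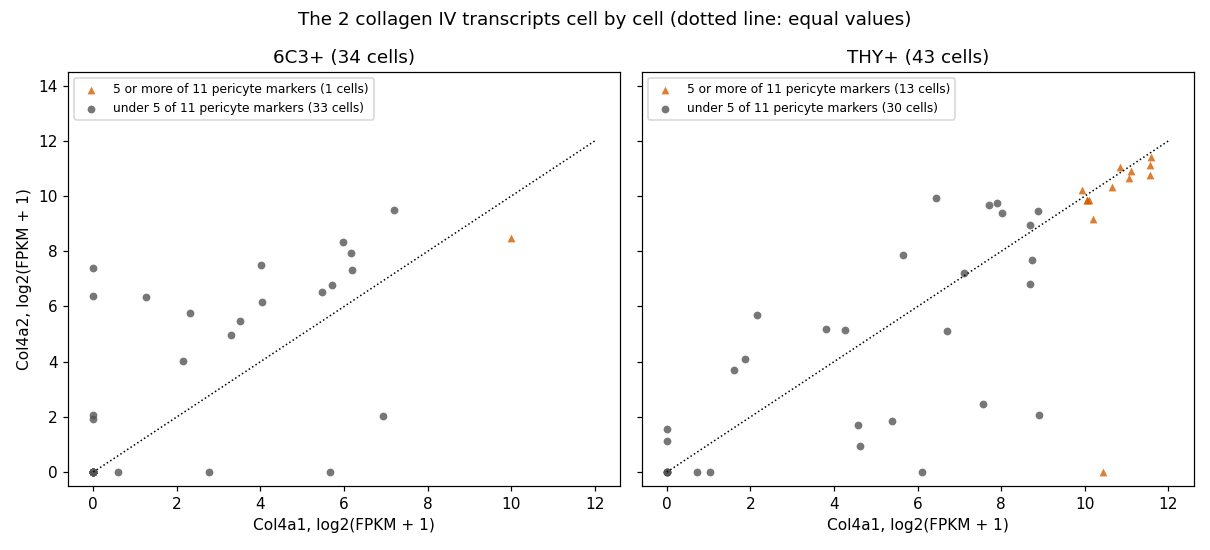
Col4a2 against Col4a1 in each 6C3+ cell (left) and THY+ cell (right), both as log2(FPKM + 1); triangles are cells with 5 or more of 11 pericyte markers, circles cells with under 5, and the dotted line marks equal values. The 13 THY+ triangles all lie at a Col4a1 of at least 973 FPKM and of the 15 6C3+ cells with both chains detected 2 lie below the line, with a median log2 ratio of Col4a1 to Col4a2 of -2.07.

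Across 6C3+ cells and across THY+ cells the collagen IV chains went together, while CSP and mSSC held them together in 0 and 2 cells. Col4a1 and Col4a2 were both detected in 15 6C3+ cells and both undetected in 13, with only 1 of the pair in the other 6, and Spearman's rho was 0.70 (Pearson's r 0.68, 34 cells). In THY+ cells both were detected in 32 and neither in 5, and rho was 0.81 (r 0.79, 43 cells). In CSP 2 cells held Col4a2 alone and rho was -0.19 (11 cells). Col4a1 was at 0 in 10 of these 11 cells and at most 0.929 FPKM, so this rho cannot show whether the chains go together. In mSSC 8 cells held Col4a2 alone and 1 Col4a1 alone, with a rho of 0.29 (37 cells). These are descriptions: cells of a population share a sort and a plate, and differ in gene number.

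Other pairs differed between the populations in value, with no test of that difference. Col4a1 and Nid1 had a rho of 0.30 in 6C3+ and 0.65 in THY+ cells, and Col4a1 and Lamb1 one of 0.63 and 0.36. Hspg2 and Sparc had a rho of 0.70 in 6C3+ and 0.28 in THY+ cells. Col4a1 and Sparc had a rho of -0.52 in 6C3+ and 0.25 in THY+ cells. The highest rho of Nid2 with another member in THY+ cells was 0.17, with Lama4. Against the number of chondrocyte markers in a cell, rho was -0.65 for Col4a1 and 0.64 for Sparc in 6C3+ cells, and -0.50 and 0.25 in THY+ cells.

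**Figure D5:**
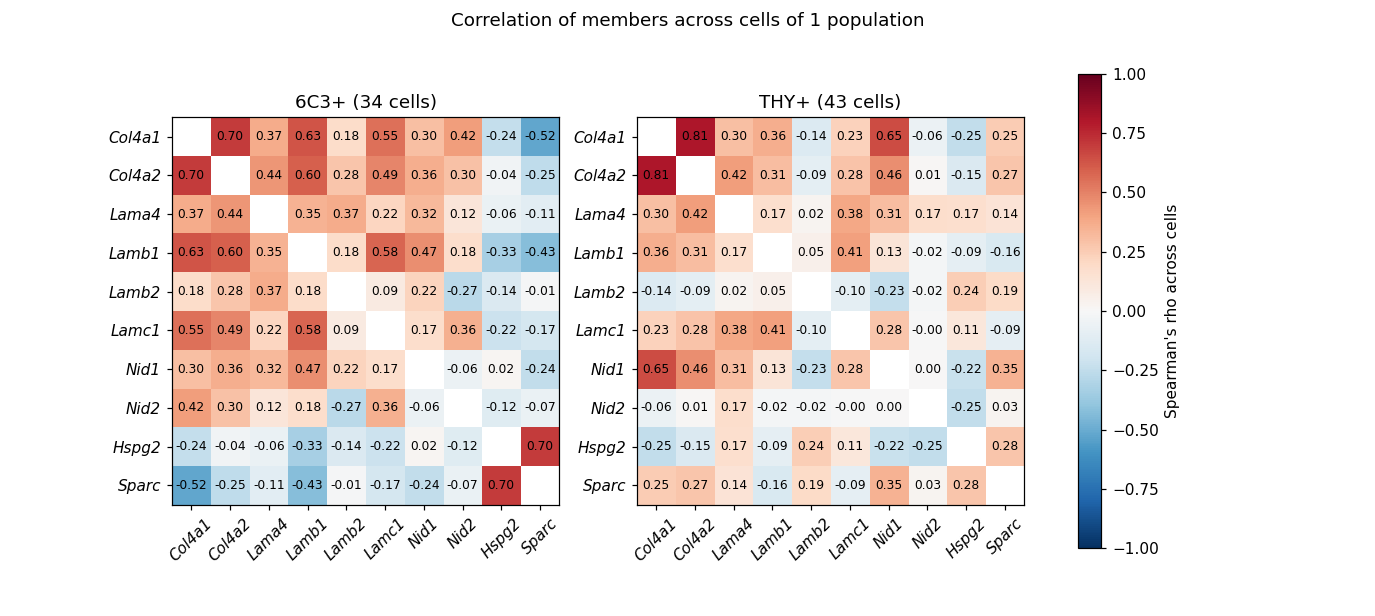
Spearman's rho between the 10 genes across 34 6C3+ cells (left) and 43 THY+ cells (right), on a scale of -1 to 1 with red positive and blue negative. Col4a1 and Col4a2 are at 0.70 and 0.81, and in 6C3+ cells Hspg2 and Sparc form a pair (0.70) that is negative with Col4a1.

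The genes whose levels ran most like the mean log2(FPKM + 1) of the 10 members were ranked in THY+ and in 6C3+ cells, with no test of a difference between the lists. In 43 THY+ cells, among 5258 genes detected in at least 20% of cells, the nearest were Cald1, an actin-binding protein of smooth muscle (rho 0.79), Gng11 (0.74), Actr2 (0.73), Tinagl1, a matrix protein (0.73), Esam (0.72), Notch3 (0.71), Timp3 (0.71) and Epas1 (0.71). In 34 6C3+ cells, among 5004 genes, they were Actb (0.75), Col3a1 (0.74), Myh9 (0.72), Mdk (0.69), Vim (0.69), Ptprs (0.68), Atf7 (0.65) and Mgst3 (0.65). Of these, Myh9 (0.68), Vim (0.66) and Actb (0.65) were also within the first 42 places of the THY+ ranking, while Tinagl1, Esam, Notch3 and Epas1 were detected in too few 6C3+ cells to be ranked there. The mean of the members itself had a rho with gene number of 0.43 in 6C3+ and 0.60 in THY+ cells, and with the number of pericyte markers of 0.17 and 0.66.

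Other basement membrane genes were read from lists chosen with earlier results known. Of 26 further components 12 were measured above the low-value limit. In THY+ minus mSSC 3 were higher by 2 or more, Col18a1, the source of endostatin (2.73), Pxdn, the peroxidase that cross-links collagen IV (2.28), and Sparcl1 (2.00), and 0 lower, where 1.91% of all genes were higher, with a list median of 1.03. In 6C3+ minus mSSC 0 were higher and 1, Smoc2, was lower (-2.19), where 4.45% of all genes were lower, and in CSP minus mSSC none reached 2 either way. In 6C3+ minus THY+, Sparcl1 was lower (-2.56), as were 0.966% of all genes. In THY+ minus CSP 3 were higher, Col18a1 (2.98), Col15a1 (2.61) and Tinagl1 (2.14), and Smoc2 was lower (-2.83), where 3.44% of all genes were higher and 6.14% lower. Tinagl1 was detected in 5.88% of 6C3+, 32.6% of THY+, 0% of CSP and 10.8% of mSSC cells. It passed the low-value limit only through its THY+ share, so its higher level there is not separate from that choice. In 6C3+ minus CSP Col15a1 was higher (2.44) and Smoc2 lower (-3.61), where 1.84% of all genes were higher and 7.69% lower.

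Of 16 receptors, 12 were measured above that limit. Sdc4, a heparan sulfate proteoglycan of the cell surface, was lower in THY+ minus mSSC (-5.63), 6C3+ minus mSSC (-3.71), THY+ minus CSP (-4.70) and 6C3+ minus CSP (-2.78). It had a median of 418 FPKM in 6C3+, 161.4 in THY+, 3168 in CSP and 5944 in mSSC cells. Sdc1 and Mcam were the 2 receptors higher in THY+ minus mSSC (2.34 and 2.21) and in THY+ minus CSP (2.92 and 2.51), and Mcam was lower in 6C3+ minus THY+ (-2.16). Mcam was detected in 8.82% of 6C3+, 32.6% of THY+, 0% of CSP and 5.41% of mSSC cells. It passed the limit only through its THY+ share, so its higher level there is not separate from that choice. No other receptor reached 2 in any of the 6 comparisons, where 0.229% to 3.62% of all genes were higher and 0.966% to 7.69% lower.

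Genes for collagen assembly were read in the same way. Of 10 such genes, all measured, 0 were higher by 2 or more in THY+ minus mSSC and 2 were lower, P4hb (-3.25) and P4ha1 (-2.08), subunits of prolyl 4-hydroxylase, where 3.06% of all genes were lower, with a list median of -0.51. The same pair was lower in 6C3+ minus mSSC, at -3.12 and -2.25, where 4.45% of all genes were lower. Loxl2, a lysyl oxidase that cross-links collagen IV, was at 1.39 in THY+ minus mSSC and -1.72 in 6C3+ minus THY+, under 2 in both. In 6C3+ minus THY+ and in CSP minus mSSC 0 of the 10 reached 2, with list medians of -0.29 and 0.81. Lower by 2 or more were 4 of the 10 in THY+ minus CSP, where 6.14% of all genes were lower, and 5 in 6C3+ minus CSP, where 7.69% were, P4hb at -2.67 and -2.53. Prolyl 4-hydroxylase acts on collagens in general and not on collagen IV alone.

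Of 8 proteases and inhibitors that act on basement membranes 7 were measured above the limit. Mmp14, a membrane-bound matrix metalloproteinase, was higher in THY+ minus mSSC (3.51), 6C3+ minus mSSC (2.30), THY+ minus CSP (3.83) and 6C3+ minus CSP (2.62). Timp1, a metalloproteinase inhibitor, was lower in THY+ minus mSSC (-2.09), THY+ minus CSP (-4.61) and 6C3+ minus CSP (-3.33) and higher in CSP minus mSSC (2.52). Timp3, an inhibitor held in the matrix, was lower in CSP minus mSSC (-3.22) and in 6C3+ minus THY+ (-2.12) and higher in THY+ minus CSP (3.60). Htra1 in THY+ minus CSP (2.27) and Timp2 in 6C3+ minus CSP (2.12) were also higher. Across the 6 comparisons 0.229% to 3.62% of all genes were higher and 0.966% to 7.69% lower.

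The remaining cells had fewer than 1000 genes. In them Col4a1 was detected in 8 of 58 6C3+, 6 of 29 THY+ and 0 of 15 CSP cells, and Sparc in 46, 24 and 15. Just inside the limit, the 6C3+ cell with 1031 genes held 5 of the 10 members and the THY+ cell with 1202 genes held 2, while just outside it the 6C3+ cell with 787 genes held 2 and the THY+ cell with 978 genes held 5, with Col4a1 at 18.2 FPKM. The nearest CSP cells had 1785 genes inside the limit, with 4 members, and 670 outside it, with 1. The mSSC cell nearest the limit had 1164 genes and 2 members.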

How the data were processed

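Single cells were profiled with SMARTer and Nextera XT chemistry on the Fluidigm C1, per the labels' protocols. FPKM values were deposited by the authors as 1 table of 24388 genes and 92 spike-ins in 227 cells. The build was mm10 and SAMtools was used, per the submitters' processing notes; the aligner, the FPKM program, the annotation and strand handling were not given in the sources used here. Depth is unknown, since FPKM are not counts. Columns were matched to cells by index names, with 0 unmatched and 0 identical.

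The members, gene lists, split and limits were chosen with earlier results of these data known. The 125 of 227 cells with at least 1000 genes at FPKM of at least 1 were used. Differences are of mean log2(FPKM + 1), with a pseudocount of 1, and shares have exact Clopper-Pearson 95% intervals. Genes detected in at least 10% of cells, as a mean over the 4 populations, form the background. Named genes are the members, up to 4 of each list with the largest difference per comparison, and the 8 genes most like the members' mean; Col4a3, Col4a4, Lama1, Lama2, Lama3, Atp1b2 and Rgs5 were named after their values were seen. Marker lists for Schwann, adipocyte, osteoblast, skeletal muscle, myeloid and erythroid cells had medians of at most 3 genes per cell. Marker genes were named after their values were seen. The difference measure and the ranking by rho were checked on cells redrawn from the mSSC cells with planted changes. The other steps were not checked in this way. Tables were computed in Python 3.11.15 with pandas 2.3.3, numpy 2.4.6 and scipy 1.17.1, and figures drawn with matplotlib 3.10.9. Alternatives changed the cells, the pseudocount, the scaling and the low-value filter.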

Additional observations from a re-analysis of the deposited data

How the results depend on the processing

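No paired analysis was possible because the cells' numbers only name a cell. Of the 13 member differences of 2 or more, all 13 still reached 2 in the same direction with at least 2000 genes per cell, with a pseudocount of 0.1 and with rescaling. The number was 12 with the log2 ratio of mean FPKM, 11 within the shared range of gene number, 10 each without pericyte-marker cells, without endothelial-marker cells and without the first 2 index rows, and 6 each over all cells and with a pseudocount of 10. Over all cells Nid2 in CSP minus mSSC was at -0.13. The median over the members moved by more than 1.5-fold as follows. In THY+ minus mSSC (1.31) it was 0.28 over all cells, 0.35 without endothelial-marker cells, 1.93 with a pseudocount of 0.1 and 0.72 with 10. In 6C3+ minus mSSC (0.82) it was -0.21 over all cells, 1.41 with a pseudocount of 0.1, 1.42 with rescaling and -0.048 with the ratio of means. In CSP minus mSSC and 6C3+ minus THY+ the ratio of means gave -1.99 and -1.45. In THY+ minus CSP (1.79) it was 1.09 over all cells, 2.63 in the shared gene range, 1.09 without pericyte-marker cells, 0.55 without endothelial-marker cells, 2.63 and 0.99 with pseudocounts of 0.1 and 10, and 3.19 with the ratio of means. In 6C3+ minus CSP (1.32) it was 0.21 over all cells, 2.18 and 0.54 with pseudocounts of 0.1 and 10, and 1.94 with rescaling. Rescaling set the median over all genes at 0.24 in 6C3+ minus mSSC, against -0.13 without it, and turned the sign of 6 member differences under 1 in size. Without the low-value filter the share of all genes past 2 was 0.115% to 3.89%. Detection at any FPKM above 0 put 1 of the 40 shares outside its interval, and detection at 10 or more put 7. The causes were not tested.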
